A study of Mus musculus with 374 samples.

Results

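Haem biosynthesis is described here through 9 genes among the 19829 mouse genes of the count table. They were chosen by name: the ubiquitous and the erythroid form of the first enzyme (*Alas1* and *Alas2*), 6 later enzymes (*Alad*, *Uros*, *Urod*, *Cpox*, *Ppox* and *Fech*), and *Slc25a38*, which carries glycine into the mitochondrion. The rule uses no measured value, although the list was drawn up with earlier results of these data known.

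The counts come from single cells of 1 mouse, a C57BL/6 female aged between 10 and 13 weeks, sorted into the wells of 1 plate and sequenced with CEL-seq2, a protocol that reads the 3′ ends of transcripts and counts each molecule once by its unique molecular identifier (UMI). From bone marrow came 96 erythroblasts (Ter119+ CD44+, of middle to high FSC-A, the forward scatter that grows with cell size), 95 progenitor/stem cells (Lin- Kit+ Sca1+), 96 granulocytes (Mac1+ Gr1+) and 44 B lymphocytes (B220+, low FSC-A), and from the thymus of that mouse came 43 T lymphocytes (CD3+, low FSC-A). With 1 mouse, each population is 1 sample. The labelled wells of each population also filled their own rows of the plate, so population and plate position cannot be told apart. The wells are not replicates, no p-value is given for any difference, and every interval is an exact 95% interval that covers counting error only.

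Haem is made from glycine and succinyl-CoA in a chain of steps that begins in the mitochondrion, passes through the cytosol and ends in the mitochondrion again, where ferrochelatase inserts iron into protoporphyrin IX. The first step, made by 5-aminolaevulinate synthase, sets the rate. Most cells use the *Alas1* form, which haem itself represses, while red cell precursors use *Alas2*, an X-linked gene whose messenger RNA carries an iron-responsive element, so that haem output follows the iron supply. Erythroblasts need haem in bulk for haemoglobin, and inherited loss of *Alas2* or *Slc25a38* function causes sideroblastic anaemia, whereas defects of the later enzymes cause porphyrias.

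The summed UMI counts on mouse genes were 666728 for the erythroblasts, 834812 for the progenitor/stem cells, 403506 for the granulocytes, 135808 for the B lymphocytes and 200396 for the T lymphocytes, with medians of 6113.5, 7959, 3880, 3028.5 and 4347 UMIs per well. The 374 wells had 374 distinct cell barcodes, and none was shared. The erythroblast label held against its markers. The 4 adult globin genes made up 23.5% of erythroblast UMIs and 3.53% to 52.3% of single wells, against 1.21% to 2.83% elsewhere. The 9 erythroid markers found in the table, globins included, made up 24.7% of erythroblast UMIs, against 1.32% to 2.92% in the other populations. Detection alone did not set the erythroblasts apart. All 9 markers also had UMIs in progenitor/stem cells, granulocytes and B lymphocytes, and 8 had them in T lymphocytes. In 7 wells the profile was nearest to another population than the labelled one (1 erythroblast, 1 progenitor/stem, 2 granulocyte, 2 B lymphocyte and 1 T lymphocyte well), and 12 wells of the other populations (9 of them B lymphocyte wells) had globin above 5% of UMIs. Without either set of wells, the counts of members at least 2-fold higher in erythroblasts were the same.

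To show what lies upstream of the highest members, the stretch before the RefSeq start site (GRCm38.p6, 5′ to 3′ on the gene's strand, at most 250 bases and ending where annotated exons begin) is printed for *Alas2* and *Cpox*, the pair with the highest erythroblast levels, and for *Urod* as a member with neither motif. The capitals mark GATAA (or TTATC on the other strand), the core of the site that GATA1 binds, and CACCC (or GGGTG), the core of the site that KLF1 binds. They lie at chrX:150547167-150547374 (plus strand), chr16:58669958-58670207 (plus strand) and chr4:116994414-116994663 (minus strand).
Alas2: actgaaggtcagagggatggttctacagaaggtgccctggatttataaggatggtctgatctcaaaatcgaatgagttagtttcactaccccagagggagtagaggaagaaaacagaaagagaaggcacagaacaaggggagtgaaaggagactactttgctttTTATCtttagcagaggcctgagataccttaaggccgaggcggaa
Cpox: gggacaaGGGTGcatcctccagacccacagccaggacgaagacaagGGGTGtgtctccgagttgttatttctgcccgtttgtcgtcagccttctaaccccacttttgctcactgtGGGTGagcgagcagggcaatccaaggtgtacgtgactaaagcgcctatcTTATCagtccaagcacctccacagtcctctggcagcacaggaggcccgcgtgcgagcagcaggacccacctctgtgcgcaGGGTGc
Urod: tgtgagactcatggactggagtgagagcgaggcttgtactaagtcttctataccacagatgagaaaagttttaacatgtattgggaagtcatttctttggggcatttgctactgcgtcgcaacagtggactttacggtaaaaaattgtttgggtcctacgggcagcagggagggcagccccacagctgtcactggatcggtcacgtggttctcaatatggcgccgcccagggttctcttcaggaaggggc
Both motifs were found within 250 bases before the start of *Alas2* and of *Cpox*, and GATAA began 86 bases before the start in each; the 3 CACCC matches of *Alas2* lie closer to the start, inside an annotated exon, and are not in the stretch above. Among 11 windows for 8 of the members (RefSeq gives *Alad*, *Alas1* and *Uros* a pair of starts each, and *Fech* had no entry), these were the 2 windows with both. A start of *Uros* inside the gene had GATAA only, *Alas1*, *Slc25a38* and 1 start of *Alad* had CACCC only, and *Urod* and *Ppox* had neither. Such short words are common: of 32851 mouse windows of this length, 22.6% held GATAA, 52.0% CACCC and 10.1% both, so a match describes the sequence and is not evidence of binding.

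Between erythroblasts and the other populations the question was which steps of the pathway carried more transcript in red cell precursors. All members but *Alas1* were higher in erythroblasts than in each of the other 4 populations, and *Alas1* was lower. Together the 9 genes held 4799 of the erythroblast UMIs, or 0.720%, against 0.0453% in progenitor/stem cells, 0.0585% in granulocytes, 0.0700% in B lymphocytes and 0.0614% in T lymphocytes. Of the genes with at least 20 UMIs in both populations together, 8 of 9 members were at least 2-fold higher in erythroblasts than in progenitor/stem cells, where 12.1% of all 8076 genes tested were, and *Alas1* was among the 49.4% that were at least 2-fold lower. Against granulocytes it was again 8 of 9 (35.4% of all genes were higher and 28.8% lower). Against B lymphocytes 8 of 8 tested members were higher (22.7% of all genes), as were 8 of 8 against T lymphocytes (22.3%), *Alas1* having too few UMIs for these comparisons. *Alad*, *Uros*, *Urod*, *Ppox* and *Slc25a38* had at most 9 UMIs in B and at most 13 in T lymphocytes. They passed the filter only through their erythroblast UMIs, as *Uros* did in every comparison. The filter thus favoured members high in erythroblasts, and the 8 of 8 follow in part from it. The median log2 ratio of the members was 3.88 against progenitor/stem cells, 3.70 against granulocytes, 3.36 against B lymphocytes and 3.43 against T lymphocytes, while that of all genes tested was -0.98, 0.29, 0.05 and -0.29. In bulk sums such as these, fewer cells with a transcript and fewer transcripts per cell cannot be told apart, and the levels by well are given below for that reason. The level used is CPM, the UMIs of a gene scaled to a total of 1e6 UMIs on mouse genes. Since a UMI stands for 1 transcript end, they were not divided by gene length, although genes whose ends are captured unequally can still differ for that reason.

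**Figure D1:**
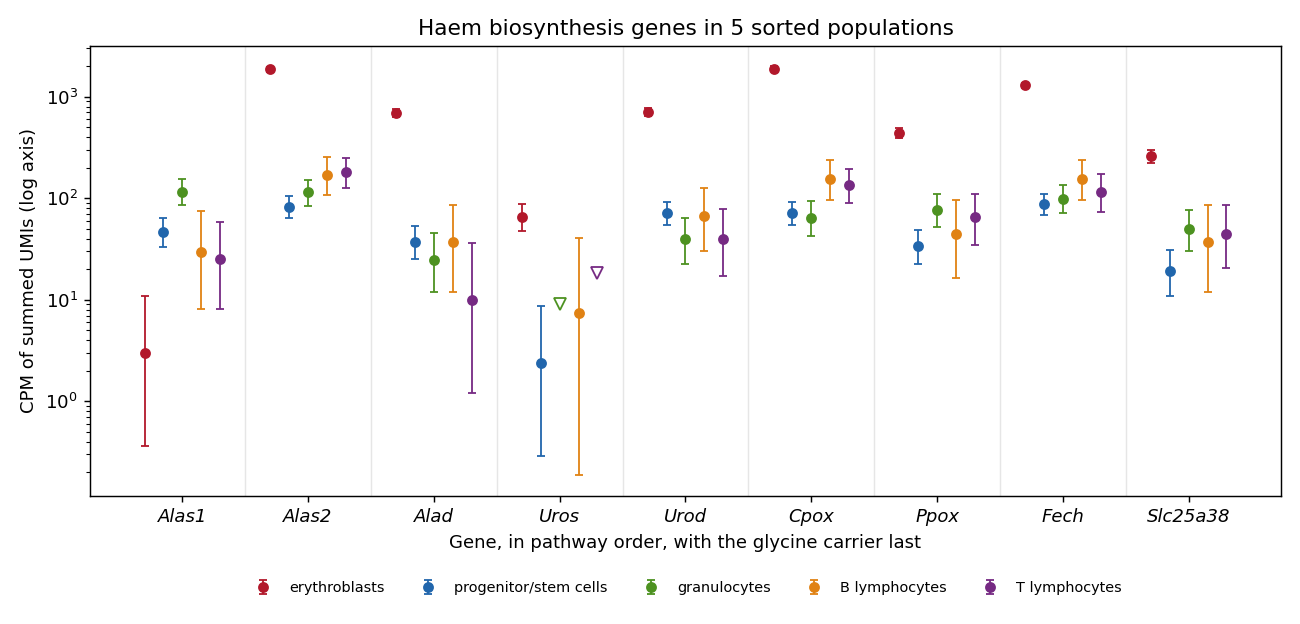
CPM of summed UMIs (log axis) of each member in each of the 5 populations, with the exact 95% Poisson interval. Open triangles mark a count of 0 and sit at its upper limit. Erythroblasts (red) are the highest population for 8 genes, from 66.0 CPM for *Uros* to 1881 CPM for *Cpox*, and the lowest for *Alas1*.

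The first step was split between its 2 forms by population. *Alas2* (chromosome X, 150547375 to 150570638, plus strand, GENCODE M21 on GRCm38) had 1243 UMIs in erythroblasts, or 1864 CPM (1762 to 1971), which made it the gene of rank 26 there. It had 69 UMIs in progenitor/stem cells, 46 in granulocytes, 23 in B lymphocytes and 36 in T lymphocytes, that is 82.7, 114, 169 and 180 CPM. None of these 4 levels differed from its neighbour in that order beyond the counting interval. The ends of the order did, with 64.3 to 105 CPM in progenitor/stem cells and 126 to 249 CPM in T lymphocytes. All 4 lay far below the erythroblasts. Those were 22.6-fold above the progenitor/stem cells (17.7 to 29.2) and 10.4-fold above the T lymphocytes (7.45 to 14.9). *Alas1* (chromosome 9, 106233455 to 106248654, minus strand) went the other way, with 2 UMIs in erythroblasts, 39 in progenitor/stem cells, 47 in granulocytes, 4 in B lymphocytes and 5 in T lymphocytes. Granulocytes had the highest level, 116 CPM (85.6 to 155), then progenitor/stem cells with 46.7 CPM (33.2 to 63.9), and the log2 ratio between them was 1.32 (0.67 to 1.97). The lymphocyte levels, 29.5 and 25.0 CPM, could not be separated from each other or, for B lymphocytes, from the progenitor/stem cells. In erythroblasts the level was 3.00 CPM (0.363 to 10.8), and granulocytes exceeded it 38.8-fold (10.2 to 330), or 25.9-fold with the erythroblast sum set to the floor of 3 UMIs. Of the 2 erythroblast UMIs of *Alas1*, 1 came from the well nearest to another population, a well of only 466 UMIs, so that in the other 95 wells a single UMI remained. When CPM was averaged over wells, which lets that well weigh as much as any other, the log2 ratio of erythroblasts to granulocytes was -2.19 and that to progenitor/stem cells -0.99, no longer a 2-fold difference.

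As a share of both forms, *Alas2* made up 99.8% of UMIs in erythroblasts (99.4% to 100.0%), 63.9% in progenitor/stem cells (54.1% to 72.9%), 49.5% in granulocytes (38.9% to 60.0%), 85.2% in B lymphocytes (66.3% to 95.8%) and 87.8% in T lymphocytes (73.8% to 95.9%). The shares outside the erythroblasts have to be read beside the globins, which are erythroid transcripts and were found in every population. Per 1000 globin UMIs, *Alas2* had 7.92 UMIs in erythroblasts (7.49 to 8.37), 6.81 in progenitor/stem cells (5.30 to 8.62), 7.39 in granulocytes (5.41 to 9.86), 5.99 in B lymphocytes (3.79 to 8.98) and 10.2 in T lymphocytes (7.11 to 14.1). In none of the 4 did the interval of the ratio to erythroblasts lie above 1, and in T lymphocytes it ran from 0.893 to 1.78. Whether the *Alas2* UMIs outside the erythroblasts came from those cells or from erythroid RNA was not tested. With UMIs in the erythroblast ratio to globin subtracted, the *Alas2* share was 0 in progenitor/stem cells, granulocytes and B lymphocytes and 61.5% in T lymphocytes. The values of 0 follow from ratios to erythroblasts below 1 (0.860, 0.933 and 0.756) and add nothing to them. In T lymphocytes 28.1 of 36 *Alas2* UMIs were subtracted and *Alas1* had 5 UMIs. That share therefore rests on a few UMIs, has no interval and does not set T lymphocytes apart. *Alas1*, in contrast, was above the erythroblast ratio in all 4.

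The enzymes of the middle of the pathway work in the cytosol. *Alad* (chromosome 4, 62509169 to 62519918, minus strand), which joins 2 molecules of aminolaevulinate into porphobilinogen, had 461, 31, 10, 5 and 2 UMIs in erythroblasts, progenitor/stem cells, granulocytes, B and T lymphocytes. The erythroblast level was 691 CPM (630 to 758), 18.6-fold that of progenitor/stem cells (12.9 to 27.7). The other 4 populations lay between 9.98 and 37.1 CPM with overlapping intervals. *Uros* (chromosome 7, 133686243 to 133710072, minus strand), which closes the ring to uroporphyrinogen III, was the lowest of the members in erythroblasts after *Alas1*, with 44 UMIs and 66.0 CPM (48.0 to 88.6). It had 2 UMIs in progenitor/stem cells, 1 in B lymphocytes and 0 in granulocytes and T lymphocytes. Set against a floor of 3 UMIs per population in place of 0, erythroblasts were at least 8.88-fold higher than granulocytes and at least 4.41-fold higher than T lymphocytes, bounds that leave out the counting error of the 44 UMIs, and the exact 95% lower limits of the ratios were 6.92 and 3.44. The ratios to progenitor/stem cells and B lymphocytes were 27.5 (7.19 to 235) and 8.96 (1.53 to 362). *Urod* (chromosome 4, 116989965 to 116994413, minus strand), the uroporphyrinogen decarboxylase, had 468 UMIs in erythroblasts, 60 in progenitor/stem cells, 16 in granulocytes, 9 in B lymphocytes and 8 in T lymphocytes. At 702 CPM (640 to 769) the erythroblasts were 9.77-fold above the progenitor/stem cells (7.45 to 13.0), the smallest of the 8 rises against that population.

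The last steps return to the mitochondrion. *Cpox* (chromosome 16, 58670292 to 58717636, plus strand), coproporphyrinogen oxidase, was the highest member, with 1254 UMIs and 1881 CPM in erythroblasts (1778 to 1988, rank 25 among all genes). It had 60, 26, 21 and 27 UMIs in progenitor/stem cells, granulocytes, B and T lymphocytes, and was 26.2-fold higher in erythroblasts than in progenitor/stem cells (20.2 to 34.5) and 29.2-fold higher than in granulocytes (19.8 to 44.9). The intervals of *Cpox* and *Alas2* in erythroblasts overlapped, so these 2 levels could not be separated. *Ppox* (chromosome 1, 171275990 to 171281186, minus strand), protoporphyrinogen oxidase, had 295 UMIs and 442 CPM in erythroblasts (393 to 496). Its next level was in granulocytes, with 31 UMIs and 76.8 CPM, and the ratio to granulocytes was 5.76 (3.97 to 8.63).

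*Fech*, which encodes ferrochelatase (chromosome 18, 64452914 to 64490251, minus strand), had 860 UMIs and 1290 CPM in erythroblasts (1205 to 1379, rank 51), the level next below *Cpox* and *Alas2*. Its counts of 73, 40, 21 and 23 UMIs in progenitor/stem cells, granulocytes, B and T lymphocytes correspond to 87.4 to 155 CPM. The erythroblasts were 14.8-fold above the progenitor/stem cells (11.6 to 19.0) and 8.34-fold above the B lymphocytes (5.42 to 13.5). *Slc25a38* (chromosome 9, 120110374 to 120124504, plus strand), the glycine carrier, had 172, 16, 20, 5 and 9 UMIs in the same order of populations, with 258 CPM in erythroblasts (221 to 300). It was 13.5-fold higher there than in progenitor/stem cells (8.06 to 24.1) and 5.20-fold higher than in granulocytes (3.27 to 8.73). *Alas2*, *Cpox* and *Fech* together made up 70.0% of the members' UMIs in erythroblasts.

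Annotated exons on the opposite strand overlap the last 500 bases of *Alas2* (*Apex2*), *Cpox* (*Gpr15*) and *Ppox* (*B4galt3*), and since the use of strand in counting is not given in the sources used here, reads of such pairs could not be told apart. *Apex2* had 11 UMIs in erythroblasts and at most 15 elsewhere. *B4galt3* had 5 UMIs in erythroblasts and was highest in granulocytes, with 20 UMIs (49.6 CPM) beside the 31 of *Ppox*, and its part in the granulocyte level of *Ppox* was not tested. An exon of *4930500F10Rik* overlaps *Alas1* away from that end.

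Several members stood, in another population, above the ratio to globin of the summed erythroblasts. In progenitor/stem cells *Urod* had 1.99 times the UMIs per globin UMI of erythroblasts (1.49 to 2.60) and *Fech* 1.31 times (1.02 to 1.67). In granulocytes *Ppox*, whose overlapping neighbour *B4galt3* was also highest there, had 2.65 times (1.77 to 3.84) and *Slc25a38* 2.93 times (1.75 to 4.67), and both were also above 1 in T lymphocytes, at 1.95 times (1.03 to 3.39) and 2.32 times (1.04 to 4.50). *Cpox* lay below the ratio in progenitor/stem cells and granulocytes (0.741 and 0.523 times) and *Alad* in T lymphocytes (0.192 times). B lymphocytes had no member above the ratio other than *Alas1*. The ratio also varied among the erythroblasts. Between their 32 wells of highest and 32 of lowest CD44 reading, the log2 ratio of CPM was -1.12 for the globins. It was -0.05 for *Urod*, -0.49 for *Fech*, 0.09 for *Ppox* and 0.21 for *Slc25a38*, so these 4 had more UMIs per globin UMI at high CD44. Whether the values above exceed that spread was not tested.

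**Figure D2:**
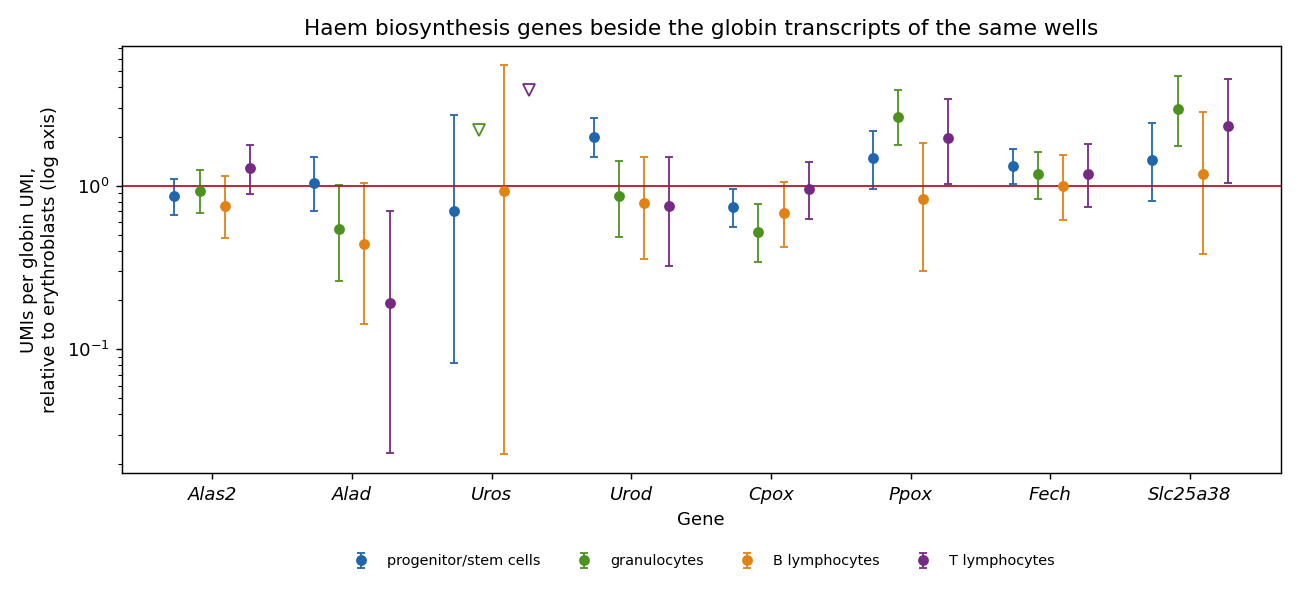
UMIs of each member per globin UMI, divided by the same ratio in erythroblasts (red line at 1, log axis), with exact 95% intervals, in the other 4 populations. Open triangles mark a count of 0 and sit at the upper limit. *Alas2* sits near the line in all 4, while *Ppox* and *Slc25a38* lie above it in granulocytes (2.65 and 2.93 times) and *Urod* in progenitor/stem cells (1.99 times).

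The members were found together in single erythroblasts. *Alas2* and *Fech* had a UMI in all 96 wells, *Urod* and *Cpox* in 95, *Alad* in 92, *Ppox* in 86, *Slc25a38* in 74, *Uros* in 33 and *Alas1* in 2. A median of 7 of the 9 genes was detected per erythroblast well (range 3 to 9), and 90 of 96 wells had at least 6, against medians of 3 in progenitor/stem cells and 2 in granulocytes, B and T lymphocytes. Depth differs between populations, so the detection expected after thinning each well to 2000 UMIs was also computed. This left out 1 erythroblast, 10 granulocyte, 11 B lymphocyte and 1 T lymphocyte well. At that depth the expected mean number of members per well was 5.45 in erythroblasts, 0.831 in progenitor/stem cells, 1.04 in granulocytes, 1.16 in B lymphocytes and 1.16 in T lymphocytes. The expected share of wells with *Cpox* was 97.1% in erythroblasts and 13.7% in progenitor/stem cells. It was 93.4% and 13.9% for *Alas2*, 58.9% and 6.49% for *Ppox*, and 0.103% and 8.70% for *Alas1*. The erythroblast well left out held 1 of the 2 *Alas1* UMIs. In granulocytes the expected share with *Alas1* was 18.1%. Before thinning, 10 of the 96 granulocyte wells had 2 or more of its UMIs, with up to 6 in 1 well.

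Within the erythroblast wells *Alas2* had the widest range of CPM of the 8 members other than *Alas1*. Its lowest, median and highest levels were 86.2, 2016 and 7284 CPM, and between the wells *Fech* ran from 259 through 1343 to 4423 CPM. *Cpox*, with a summed level close to that of *Alas2*, ran from 0 through 1895 to 4219 CPM. An index of dispersion, which is 1 when wells differ only by counting, was 5.21 for *Alas2*, 2.16 for *Fech* and 1.51 for *Cpox*. It was 1.33 for *Alad*, 1.26 for *Slc25a38*, 1.23 for *Ppox*, 1.05 for *Urod* and 0.957 for *Uros*, while the median of the 391 genes with at least 200 erythroblast UMIs was 1.79. *Urod* (0 to 1965 CPM, median 650) and *Alad* (0 to 2025 CPM, median 667) had an index nearer to that of counting alone. At the same relative spread the index is higher for a gene with more UMIs, and few UMIs keep it near 1. It therefore does not rank the members by relative spread, and the comparison with the median of the 391 genes has the same limit. The spread of *Alas2* was not set by the well nearest to another population, without which its index was 5.26. *Alas1* had an index of 7.68 from its 2 UMIs, which fell to 0.336 without that well.

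**Figure D3:**
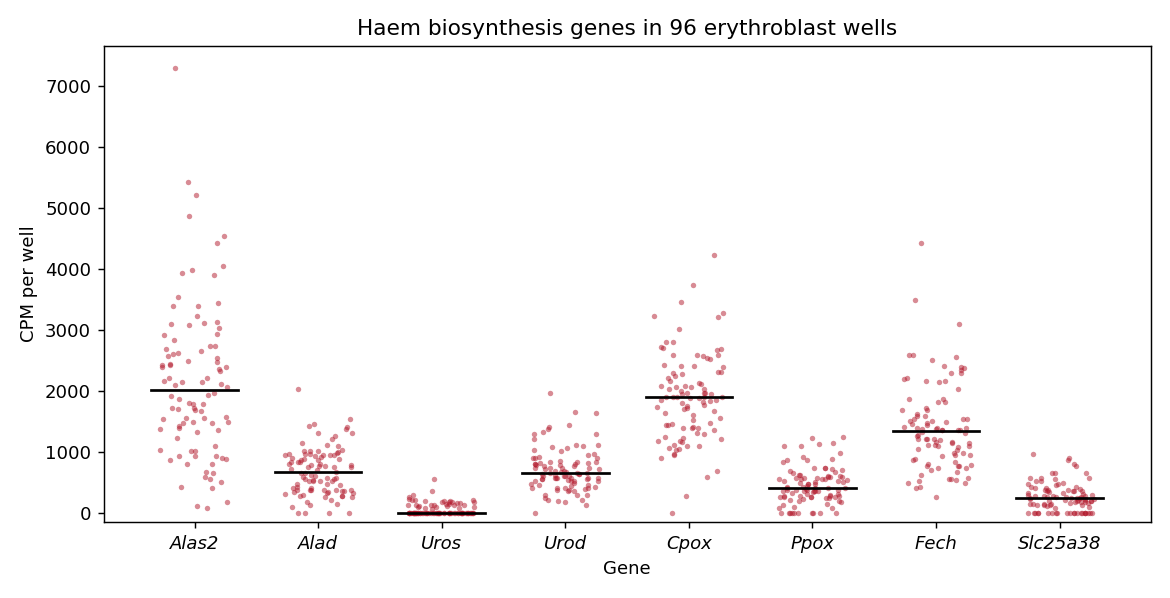
CPM of 8 members in each of the 96 erythroblast wells (points), with the median over wells (line). *Alas2* spans 86.2 to 7284 CPM, whereas *Cpox*, with a similar median, spans 0 to 4219 CPM.

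*Alas2* followed the globins from well to well. Spearman's rho between its CPM and the globin share of the same well was 0.77, and for *Fech* it was 0.52, whereas for the other 6 it lay between -0.15 and 0.17 (96 wells of 1 mouse and 1 plate, which share depth as a common factor, and no p-value). Within each of the 4 plate rows of 24 wells that held the erythroblasts, rho was 0.76 to 0.86 for *Alas2* and 0.34 to 0.65 for *Fech*. Relative to ERCC spike-in UMIs instead of total UMIs it was 0.38 for *Alas2* and -0.06 for *Fech*, so that the relation of *Fech* depended on the scale. With globins left out of the total it was 0.87 for *Alas2*, 0.69 for *Fech* and 0.41 for *Cpox*, with scran size factors 0.89, 0.79 and 0.66, and by spike-ins it was -0.52 for *Cpox*. On each of the 4 scales *Alas2* had the highest value of the 8 members tested. Wells of higher globin share were also shallower, and rho with the total UMIs of the well was -0.52 for *Alas2* and -0.42 for *Fech*. The part of depth in these relations was not tested. *Alas2* and *Fech* had the highest rho of CPM of the 28 pairs among the 8 members other than *Alas1*, 0.57, beside a median of 0.08 over the pairs. The 5 genes most like *Alas2* over the wells, by rho among the 391 genes, were *Hba-a1* (0.77), *Hbb-bt* (0.77), *Hba-a2* (0.77), *Hbb-bs* (0.74) and the globin pseudogene *Hba-ps4* (0.73). Reads may be split among similar copies within the *Hba* genes and within the *Hbb* genes. *Fech* was at rank 8, while *Ppox*, *Urod*, *Cpox* and *Alad* were at ranks 112, 118, 140 and 150.

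**Figure D4:**
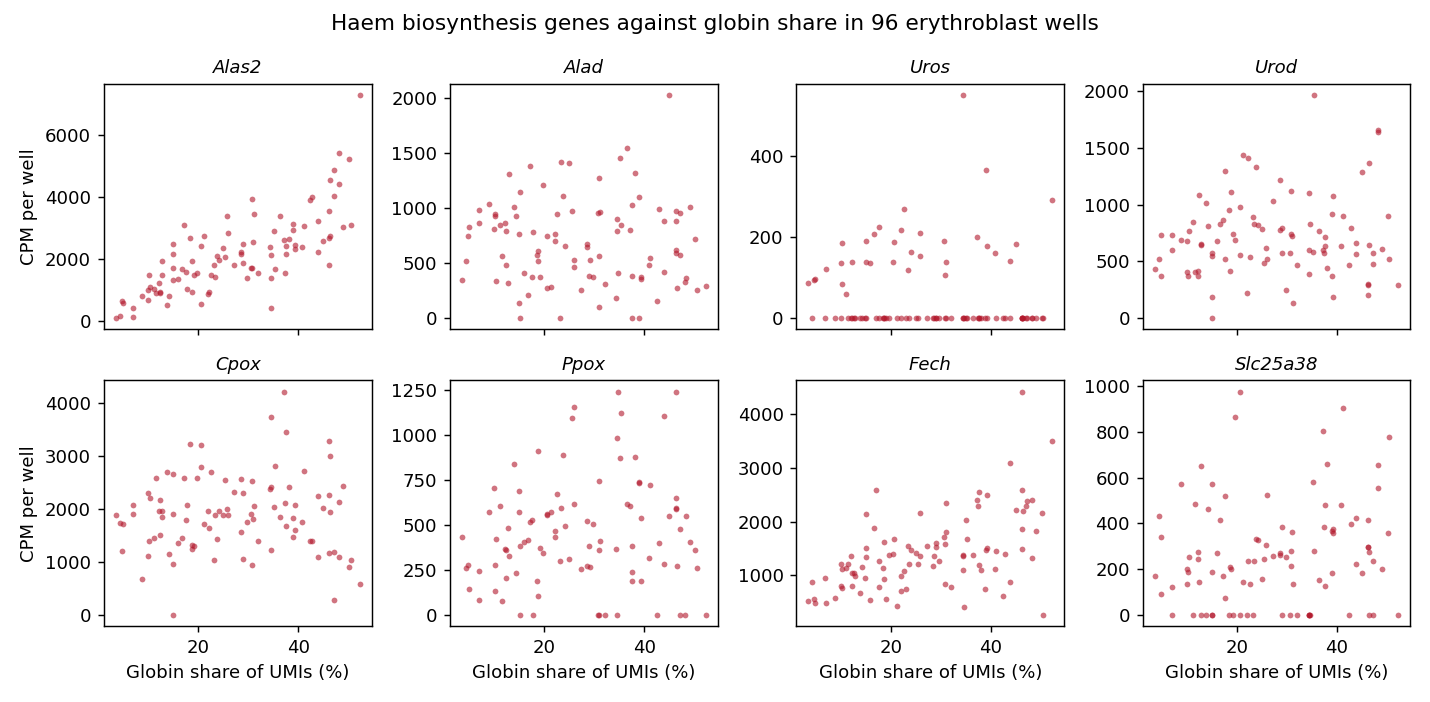
CPM of 8 members against the globin share of UMIs, with 1 point for each of the 96 erythroblast wells. *Alas2* (rho 0.77) and *Fech* (rho 0.52) are higher in wells with more globin on this scale (relative to spike-ins rho for *Fech* is -0.06), and rho was 0.01 for *Cpox* and 0.04 for *Urod*.

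The sorter recorded CD44, a surface protein that falls as erythroblasts mature, for each well, and this reading does not come from the counts. The wells were divided into 3 equal groups of 32 by CD44 fluorescence, with readings of 976 to 2058, 2060 to 3195 and 3202 to 6170 arbitrary units. By CPM, *Alas2* had 2513 CPM in the lowest, 2082 in the middle and 1301 in the highest group, a log2 ratio of highest to lowest of -0.95 (-1.16 to -0.74). *Fech* had 1543, 1336 and 1100 CPM, a log2 ratio of -0.49 (-0.73 to -0.24) that turned to 0.18 relative to spike-ins. *Cpox* had 1851, 1986 and 1817 CPM (-0.03, from -0.23 to 0.18), and the intervals of *Alad*, *Uros*, *Urod*, *Ppox* and *Slc25a38* also included 0. No member was 2-fold different, where 29.4% of all genes tested were at least 2-fold higher and 3.29% at least 2-fold lower in the highest group, and the median of all genes was 0.46. The globins fell by 1.12 on the log2 scale and *Slc25a37*, the mitochondrial iron importer, by 1.02, while *Klf1* had a ratio of -0.13 (-0.47 to 0.20). By FSC-A the ratio was -0.77 for *Alas2* (-0.97 to -0.57), -0.24 for *Fech* (-0.49 to 0.01) and 0.37 for *Alad* (0.03 to 0.72), and no member was 2-fold different (background 25.9% higher and 2.43% lower). FSC-A readings tied at both cuts between the 3 groups, 108000 and 121000, so wells of equal FSC-A fell into neighbouring groups. How far the *Fech* and *Alad* intervals, with a limit close to 0, depend on these ties was not tested.

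Another scale adds the same constant to the CD44 ratio of every gene, so it can turn a sign but not the order of the members, in which *Alas2* was lowest and *Fech* next. The highest CD44 group had 22.1 UMIs on mouse genes per ERCC UMI and the lowest 13.8, so that relative to the spike-ins *Alas2* had a CD44 ratio of -0.28 and *Fech* one of 0.18, while *Cpox*, *Urod* and *Alad* rose to 0.65, 0.62 and 0.89. With scran size factors the ratios were -1.69 for *Alas2* and -1.23 for *Fech*, and that of *Cpox* was -0.76. The ratio of one member to another needs no scale. *Alas2* made up 57.6% of the UMIs of *Alas2* and *Cpox* together in the lowest CD44 group (53.9% to 61.2%), 51.2% in the middle group (47.8% to 54.5%) and 41.7% in the highest (38.4% to 45.1%). For *Fech* with *Cpox* the shares were 45.5% (41.3% to 49.6%), 40.2% (36.6% to 43.9%) and 37.7% (34.4% to 41.1%). For both pairs the intervals of the lowest and the highest group did not overlap, for *Fech* with *Cpox* only narrowly (41.3% against 41.1%). These intervals cover counting error only. The wells differed by more than counting, with a dispersion index of 5.21 for *Alas2*, 2.16 for *Fech* and 1.51 for *Cpox*, so they are too narrow for the spread between wells. *Urod* with *Cpox* stayed at 28.2%, 25.6% and 27.9%. In the 3 groups by FSC-A the shares of *Alas2* with *Cpox* were 57.4%, 51.9% and 41.6%. Those of *Fech* with *Cpox* were 42.9% (38.7% to 47.2%), 43.9% and 36.4% (33.1% to 39.8%), where the intervals of the lowest and the highest group overlapped.

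**Figure D5:**
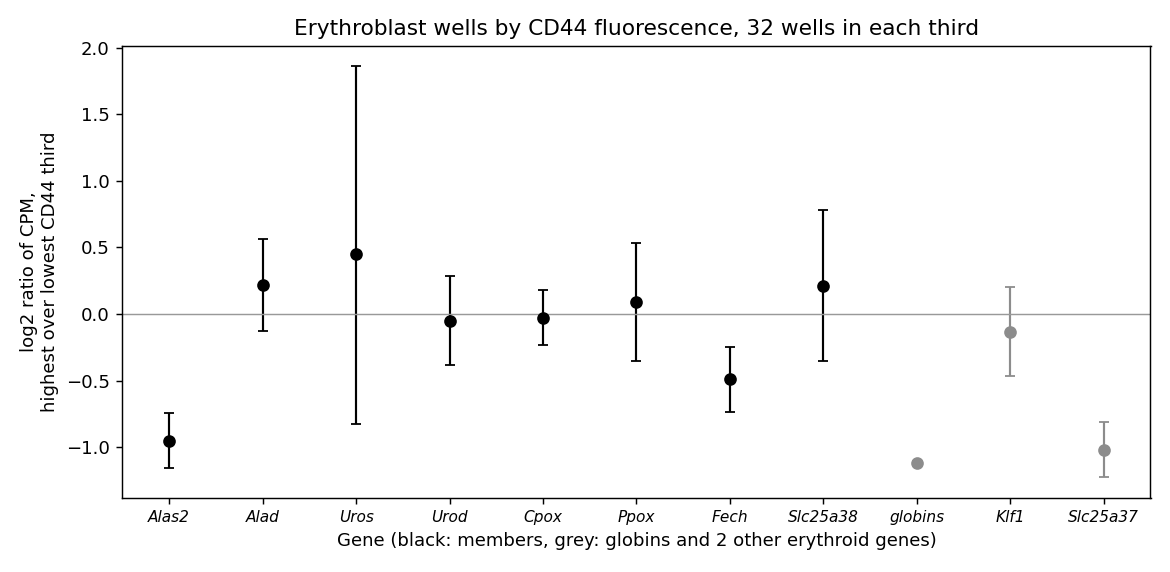
Log2 ratio of CPM between the 32 erythroblast wells of highest and the 32 of lowest CD44 fluorescence, with exact 95% intervals, for 8 members (black) and for the globins, *Klf1* and *Slc25a37* (grey). *Alas2* (-0.95) and *Fech* (-0.49) lie below 0 with the globins (-1.12) on this scale (relative to spike-ins *Fech* turns to 0.18), and the intervals of the other 6 members include 0.

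Over the 5 populations, the genes whose levels were most like those of *Alas2* (Pearson's r of log2(CPM + 10) over 5 values, among 3906 genes with at least 100 UMIs) were *Gata1*, *Azin1*, *Lmna*, *Ackr1* and *Rhag*, all with r of at least 0.995, and for *Alas1* they were *Smpdl3a*, *Hexa*, *Sort1*, *Sppl2a* and *Scp2* (0.992 to 0.998). Taken as the highest of 3906 genes over 5 values, an r this near 1 follows from the selection and only describes the levels. *Gata1*, the erythroid transcription factor, had 304 CPM in erythroblasts and 28.7 to 54.9 CPM elsewhere. *Hexa*, a lysosomal enzyme, had 149 CPM in granulocytes and 1 UMI in erythroblasts.

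The genes around the pathway were taken from lists of its transporters, its iron-sulphur supply, its breakdown and its regulators. Against progenitor/stem cells 8 of 11 transport genes tested were at least 2-fold higher in erythroblasts and 1 lower, beside 12.1% of all genes. They include *Slc25a37* (1908 CPM against 151), *Tmem14c*, which moves protoporphyrinogen into the matrix (1195 against 69.5), *Abcb10*, a partner of *Slc25a37* in the inner membrane (879 against 28.7), and *Slc6a9*, the plasma membrane glycine carrier (328 against 12.0). *Slc25a28*, the iron importer of other cells, was lower (24.0 against 77.9). Of 7 iron-sulphur assembly genes 4 were higher, with *Glrx5* at 774 CPM against 88.6, and none was lower. Of 3 haem breakdown genes *Blvrb*, a biliverdin reductase, was higher (1344 against 33.5) and *Hmox2*, the constitutive haem oxygenase, was lower (9.00 against 103). Of 9 regulators *Klf1* (708 against 14.4), *Gata1* and *Eif2ak1*, the haem-sensing kinase (570 against 103), were higher, and *Ireb2* and *Pgrmc1* were lower. The median log2 ratio was 3.66 for the transport genes, 1.40 for iron-sulphur assembly, 0.80 for haem breakdown and 0.19 for the regulators, against -0.98 for all genes tested. Against granulocytes 8 of 11 transport genes were at least 2-fold higher (35.4% of all genes), and 9 of 11 were against B lymphocytes (22.7%) and against T lymphocytes (22.3%). Some of these passed the filter only through their erythroblast UMIs, such as *Abcb10* with 1 UMI in B and 2 in T lymphocytes.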

How the data were processed

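Wells of 5 populations of 1 mouse were analysed. The authors deposited raw UMI counts, whole numbers for each gene in each well, which the paper describes as made with *scPipe* from aligned reads assigned to exons. For the aligner's version, the genome build, the annotation and strand use, the answer is not given in the sources used here, and the labels describe read 1 in 2 ways that cannot both hold. Each well's column was found by its well name. Another 9 columns without a labelled sample were left out, and 1 enzyme of the pathway is not reported here. Symbols were found for 19755 of 19829 gene IDs.

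UMIs were summed per population and divided by the UMIs on mouse genes (CPM), without ERCC. Sums under 3 UMIs were set to 3 before a gene was called at least 2-fold different, and genes needed 20 UMIs in both populations together. Intervals are exact (Poisson, binomial, or conditional binomial for ratios) at 95% and cover counting error only. They were checked on simulated data. Dispersion is the sum over wells of squared deviations from the expected count over that count, divided by the wells less 1. Alternatives used other scalings (total without globins and *Gm42418*, ERCC UMIs, scran 1.30.0 size factors in R 4.3.3), filters, floors and well sets. Doublets were not called, since each well was sorted to hold 1 cell. Python 3.11.15, numpy 2.4.6, pandas 2.3.3 and scipy 1.17.1 were used. All 9 members were named, with related genes of at least 20 erythroblast UMIs as examples. *Slc25a28*, *Hmox2* and *Pgrmc1* have fewer and were named, after their values were seen, to account for the counts of lower genes. Members and lists were chosen with earlier results of these data known.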

Additional observations from a re-analysis of the deposited data

How the results depend on the processing

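The 4 counts of members at least 2-fold higher in erythroblasts stayed at 8 under 11 of 12 alternatives and were 7 with a filter of at least 50 UMIs, which *Uros* did not pass, and the 32 ratios of the members other than *Alas1* stayed at least 2-fold under each setting that gave them. The alternative that left out wells above 5% globin was chosen after seeing the data. With globin-scaled UMIs subtracted, the *Alas2* share of both forms moved to 0 in progenitor/stem cells, 0 in granulocytes, 0 in B lymphocytes and 61.5% in T lymphocytes. These values follow from the ratios to globin given above and have no interval, and the last rests on a few UMIs. The log2 ratio of the summed members between the 32 erythroblast wells of highest and of lowest reading was -0.31 by CD44 and -0.14 by FSC-A. Without globins and *Gm42418* in the total it was -0.70 and -0.50, with scran size factors -1.04 and -0.74, and relative to ERCC UMIs it turned to 0.37 and 0.53. Averaging CPM over wells moved the log2 ratio of *Alas1* from -3.38 to -0.99 against progenitor/stem cells, from -4.69 to -2.19 against granulocytes and from -2.47 to -0.19 against T lymphocytes, because 1 of its 2 erythroblast UMIs lies in a well of 466 UMIs. No paired analysis was possible because the wells carry no replicate numbers that pair cells between populations and no result comes from a test. Depth limits *Uros* and *Alas1* most, whose sums outside their main populations are a few UMIs, and 1 mouse gives no measure of the spread between animals.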
